A study of Mus musculus with 9 samples.

Results

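The genes described here are the integrin subunits and the laminin chains, the cell surface receptors for extracellular matrix and the main glycoproteins of the basement membrane that several of them bind. They were taken by symbol, as Itga or Itgb followed by a number or by d, e, l, m, v or x, and as Lama, Lamb or Lamc followed by a number. The choice to describe these families was made with earlier results of these data known. Proteins that only bind integrins (Itgb1bp1, Itgb1bp2, Itgb3bp) and the integrin-like gene Itgbl1 were left out. Described here are 37 of the 24421 genes in the count table, of which 27 are integrin subunits (18 alpha and 9 beta) and 10 are laminin chains. They were measured by RNA-seq of poly(A) RNA in 4T1 cells, an established mouse mammary carcinoma line that forms lung metastases when transplanted. Of the 9 libraries, 3 came from 3D cultures without added palmitate, 3 from 3D cultures with 75 µM palmitate added and 3 from 2D cultures with 75 µM palmitate added, all grown for 5 days. The 3D cells were grown as spheroids and the 2D cells attached to plastic, and no gene was altered in any group. The medium held serum in every group, so that the cultures without added palmitate still received the fatty acids of the serum, and the authors supplied the fatty acid solvent to those cultures as a control. A 2D culture without added palmitate was not analysed here, so palmitate was compared in 3D only.

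Integrins are heterodimers of an alpha and a beta subunit that span the plasma membrane, bind matrix proteins outside the cell and connect to actin or to intermediate filaments inside it. Most pairs hold the beta1 subunit (Itgb1), whereas beta4 (Itgb4) pairs only with alpha6 (Itga6) and anchors epithelial cells to laminin through hemidesmosomes, and the alphav subunit (Itgav) pairs with several betas that read RGD, a short amino acid motif of fibronectin, osteopontin and related ligands. Laminins are trimers of an alpha, a beta and a gamma chain. In mammary epithelium a trimer that holds Lama3 and Lamb3 lies under hemidesmosomes, and that of Lama5, Lamb1 and Lamc1 is a common component of the epithelial basement membrane.

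Total counts per library lay between 6595514 and 31177756, and the smallest library was replicate 3 of the 3D cultures with palmitate. Of the 37 genes, 26 had enough counts to be tested among 12575 genes in all, and the other 11 had at most 15 counts in any library. Levels are given as CPM, counts scaled to a common library size with TMM factors, with SD over n = 3 libraries per group, and levels of different genes are set side by side only after division by transcript length (CPM per kb). A gene was called at an adjusted p-value under 0.05 in the quasi-likelihood test of edgeR, adjusted by the Benjamini-Hochberg method over all genes tested. The labels do not say whether the libraries of a group came from separate cultures, so the p-values measure the spread between these libraries. Of 8 mammary epithelial marker genes, 7 passed the filter in these cells (among them Epcam, Krt8 and Krt18), and Krt5 had at most 1 count. Their summed levels lay between 4040 and 4360 CPM in 2D, 5080 and 5340 CPM in 3D with palmitate and 5210 and 5280 CPM in 3D without. Between 3D and 2D with palmitate, 4 markers were called higher and 1 lower (Krt7, log2 fold change -0.51), where 68.3% of all genes tested were called. With palmitate in 3D, 1 was called lower (Krt14, -0.52) and 0 higher, where 2.19% of all genes tested were called.

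The promoters of 5 members are shown, chosen by the results below. Itga8 and Itga1 had the largest changes between 3D and 2D cultures, Itgb7 rose with palmitate, and Itgb1 and Itga3 were the most abundant beta and alpha subunits. Each sequence holds the 250 bases before the RefSeq start site (GRCm38.p6), 5′ to 3′ on the strand of the gene, and capitals mark matches to 1 of 3 motifs on either strand. The motifs were AP-1 (TGANTCA), TEAD (GGAATG) and SP1 (GGGCGG), found in 6.75%, 12.6% and 32.7% of the same window of 32851 RefSeq promoters. A promoter was at hand for 24 of the 37 genes.
Itga8, chr2:12301945-12302194, minus strand: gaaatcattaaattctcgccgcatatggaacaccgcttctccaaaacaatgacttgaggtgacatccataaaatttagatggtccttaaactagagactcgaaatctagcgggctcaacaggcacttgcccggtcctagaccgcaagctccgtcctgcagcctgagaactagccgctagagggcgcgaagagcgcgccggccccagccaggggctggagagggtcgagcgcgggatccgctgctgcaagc
Itga1, chr13:115101965-115102214, minus strand: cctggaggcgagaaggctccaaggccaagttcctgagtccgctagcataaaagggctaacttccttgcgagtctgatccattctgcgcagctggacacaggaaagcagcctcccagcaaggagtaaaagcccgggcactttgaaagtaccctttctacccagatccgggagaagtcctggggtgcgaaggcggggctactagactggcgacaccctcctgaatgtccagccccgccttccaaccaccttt
Itgb7, chr15:102231936-102232185, minus strand: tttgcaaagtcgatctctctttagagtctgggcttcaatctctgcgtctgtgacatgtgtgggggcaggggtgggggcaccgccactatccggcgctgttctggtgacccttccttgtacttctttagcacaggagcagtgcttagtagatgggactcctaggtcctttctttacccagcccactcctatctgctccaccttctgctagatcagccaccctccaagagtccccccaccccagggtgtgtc
Itgb1, chr8:128685404-128685653, plus strand: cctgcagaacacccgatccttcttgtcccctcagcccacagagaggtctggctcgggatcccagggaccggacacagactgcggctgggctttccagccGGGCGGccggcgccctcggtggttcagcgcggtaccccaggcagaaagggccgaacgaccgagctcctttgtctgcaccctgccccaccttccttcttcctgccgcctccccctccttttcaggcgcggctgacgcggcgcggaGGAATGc
Itga3, chr11:95076715-95076964, minus strand: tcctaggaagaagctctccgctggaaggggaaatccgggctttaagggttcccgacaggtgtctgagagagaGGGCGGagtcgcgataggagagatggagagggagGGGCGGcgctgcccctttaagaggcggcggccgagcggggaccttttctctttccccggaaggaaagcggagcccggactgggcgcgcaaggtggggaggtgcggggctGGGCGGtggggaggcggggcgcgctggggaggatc
The windows of Itga8, Itga1 and Itgb7 held none of the 3 motifs. The Itgb1 window held an SP1 match starting 151 bases before the start site and a TEAD match starting 7 bases before it, and the Itga3 window printed held SP1 matches starting 178, 144 and 35 bases before it. A second Itga3 window, not printed, held an SP1 match starting 246 bases before its start site. Among members not shown, SP1 matches lay in the windows of Itga4, Itga5, Itgam, Itgb5, Lama5 and Lamb1. TEAD matches lay in the window of Itga10 and in the second window of Lamb3, and an AP-1 match lay in the window of Itgax. Of these genes, Itga4, Itgam and Itgax had too few counts to be tested. The matches printed did not overlap one another. They describe letters in a window and were not tested for binding.

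The first comparison asked how these genes differed between 3D and 2D cultures that both received palmitate. Many integrin subunits and the laminin chains with enough counts were higher in 3D. The largest rises were those of the collagen receptor subunit Itga1 (26.4-fold) and the RGD receptor subunit Itga8 (22.0-fold). Next came the hemidesmosomal subunit Itgb4 (5.44-fold), the alphav partner Itgb3 (5.41-fold) and the hemidesmosomal laminin chain Lama3 (4.96-fold). Of the 26 genes tested, 16 were called higher in 3D (Itga1, Itga2, Itga6, Itga8, Itgav, Itgb1, Itgb3, Itgb4, Itgb5, Itgb8, Lama3, Lama5, Lamb1, Lamb2, Lamb3 and Lamc1) and 4 lower (Itga7, Itgb2, Itgb6 and Itgb7). Among all 12575 genes tested, 68.3% were called, 34.5% higher and 33.9% lower, and the median log2 fold change was 0.01, against 0.48 over these 26 genes. By family, 5 alpha subunits were higher and 1 lower of 12 tested, 5 beta subunits were higher and 3 lower of 8 tested, and 6 laminin chains were higher of 6 tested. A gene that is high in 1 group only can pass the filter through that group, so these counts are a description of the genes that passed and not of the families. In bulk RNA, more cells that express a gene and more RNA per cell cannot be told apart.

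**Figure D1:**
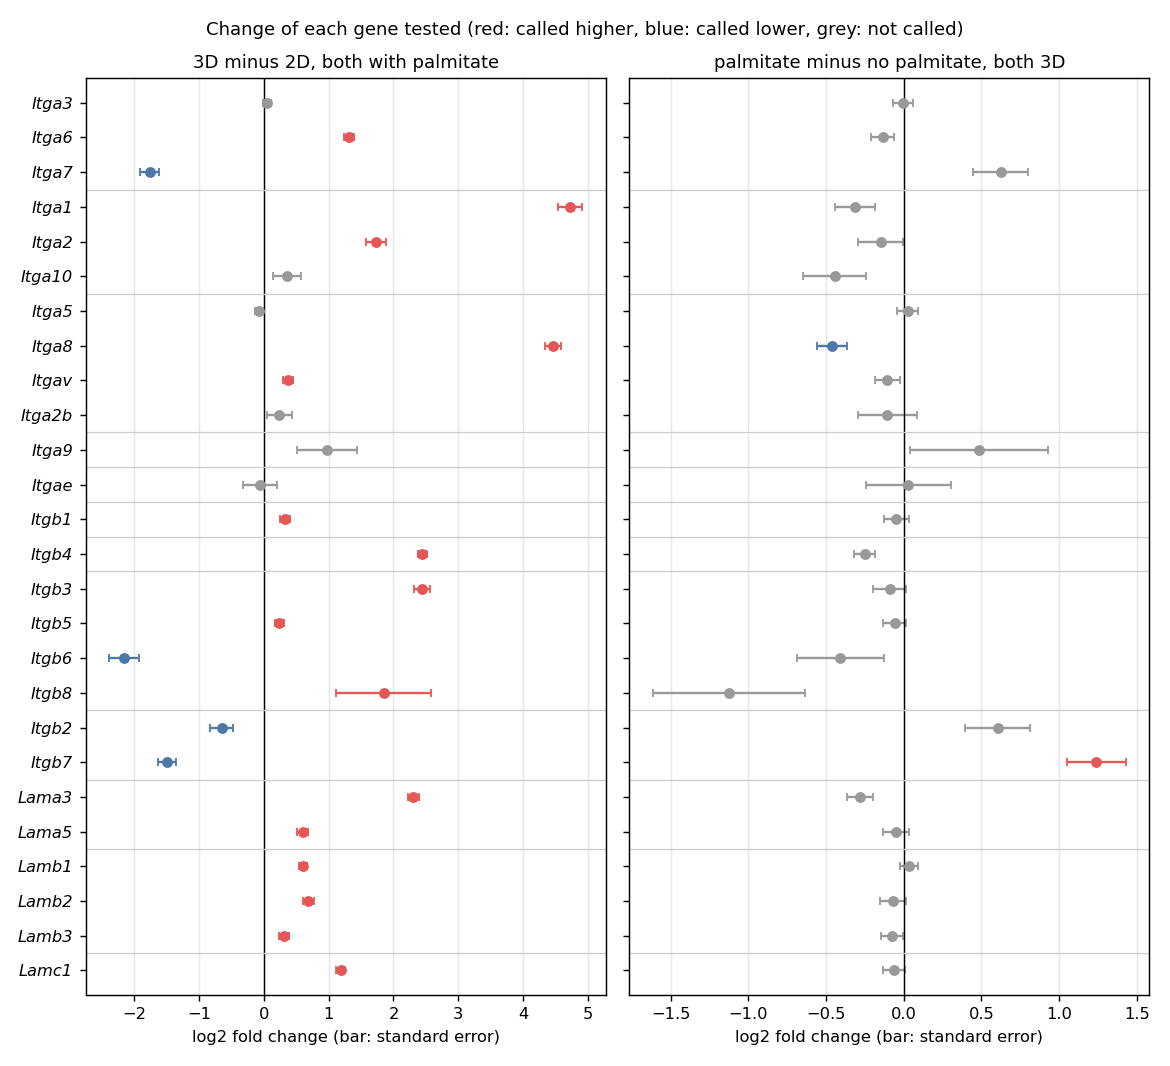
Log2 fold change of each gene tested (x axes, bars are standard errors) for 3D minus 2D cultures with palmitate (left) and for palmitate minus no palmitate in 3D cultures (right), with n = 3 libraries per group and genes ordered by role. Itga1 and Itga8 lie above 4 on the left, and on the right only Itgb7 (higher) and Itga8 (lower) are called.

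Of the alpha subunits that pair with beta1 or beta4 to bind laminin, Itga6 rose in 3D, Itga7 fell and Itga3 was not called. Itga6 stood at 202, 219 and 180 CPM in the 2D libraries, at 470, 507 and 523 CPM in the 3D libraries with palmitate and at 530, 550 and 567 CPM in those without. The 3D and 2D groups did not overlap, with a log2 fold change of 1.32 (SE 0.0748, adjusted p = 1.53e-09). Itga7, a laminin receptor best known from muscle, stood at 19.4, 22.0 and 22.5 CPM in 2D, at 6.48, 6.69 and 5.21 CPM in 3D with palmitate and at 3.12, 5.43 and 3.96 CPM in 3D without. All 2D libraries lay above all 3D libraries, and the gene fell by 1.76 on the log2 scale (SE 0.146, adjusted p = 7.81e-08). Itga3, whose product binds the laminin trimers of epithelial basement membranes, gave 1242, 1279 and 1196 CPM in 2D, 1327, 1221 and 1300 CPM in 3D with palmitate and 1184, 1366 and 1313 CPM in 3D without. Its groups overlapped, with a log2 fold change of 0.05 (SE 0.0648, adjusted p = 0.513). When trends of the libraries with GC content and length were removed, an alternative added after seeing the data, Itga3 was called lower in 3D, at -0.14 (adjusted p = 0.0186).

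The collagen receptor subunits Itga1 and Itga2 were both higher in 3D, and they are neighbours on chromosome 13, on the same strand with 21.0 kb between them. Itga1, which binds collagen IV of basement membranes by preference, gave 2.56, 2.66 and 2.14 CPM in 2D, 50.6, 68.0 and 81.8 CPM in 3D with palmitate and 79.2, 74.1 and 89.7 CPM in 3D without. The 2D libraries lay far below the 3D libraries, with a log2 fold change of 4.72 (SE 0.186, adjusted p = 2.98e-11). Itga2, which favours fibrillar collagens, gave 72.5, 82.0 and 53.8 CPM in 2D, 186, 232 and 276 CPM in 3D with palmitate and 229, 249 and 286 CPM in 3D without, with a log2 fold change of 1.73 (SE 0.152, adjusted p = 1.5e-07). Per kb of transcript the ratio of Itga1 to Itga2 was 0.0232 ± 0.0024 in 2D, 0.186 ± 0.0086 in 3D with palmitate and 0.207 ± 0.0159 in 3D without. The 3D and 2D ratios did not overlap, at an exact two-sided permutation p of 0.1, the smallest that 3 against 3 libraries allow. Itga10, a collagen receptor subunit of cartilage, was present at 2.02 ± 0.0323 CPM in 2D, 2.35 ± 0.845 CPM in 3D with palmitate and 3.53 ± 0.44 CPM in 3D without, and was not called in 3D against 2D (adjusted p = 0.158), though it was called higher without replicate 3 of the 3D cultures with palmitate (log2 fold change 0.49, adjusted p = 0.033). Same-strand coding genes cover 33.5% of the exonic bases of Itga10 (Gm42957) and 3.68% of those of Itga1 (Gm49395). The part of these overlaps in the levels was not tested. Beside the collagen receptor genes, the summed level of 5 fibroblast markers lay between 31.7 and 33.6 CPM in 2D and between 93.4 and 111 CPM in 3D with palmitate. Most of that sum was Pdgfra (log2 fold change 1.69), while Col1a1 was lower in 3D, Dcn and Thy1 had at most 2 counts in a library and Lum had 0 counts throughout.

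Among the alpha subunits that read RGD, Itga8 rose in 3D far more than Itgav, and Itga5 and Itga2b were not called. Itga8, which pairs with beta1 and binds nephronectin in the kidney, gave 8.6, 9.1 and 8.69 CPM in 2D, 170, 184 and 234 CPM in 3D with palmitate and 260, 257 and 289 CPM in 3D without. The 3 groups formed 3 separate ranges, and the log2 fold change of 3D against 2D was 4.46 (SE 0.121, adjusted p = 9.71e-13). An antisense gene, E030013I19Rik, covers 5.05% of the exonic bases of Itga8, and the strand setting of the counting is not given in the sources used here. Itgav gave 242, 249 and 212 CPM in 2D, 279, 299 and 333 CPM in 3D with palmitate and 311, 323 and 345 CPM in 3D without, a log2 fold change of 0.37 (SE 0.0795, adjusted p = 0.000834). This call was lost after removal of the GC and length trend (0.05, adjusted p = 0.33). Itga5, the classic fibronectin receptor subunit, was measured at 74.1 ± 4.91 CPM in 2D, 70.5 ± 3.98 CPM in 3D with palmitate and 69.6 ± 0.788 CPM in 3D without (log2 fold change -0.07, SE 0.068, adjusted p = 0.373), and it was called lower at -0.23 once that trend was removed (adjusted p = 0.000857). Per kb of transcript, Itga8 reached 0.0897 ± 0.00589 of the level of Itga5 in 2D, 2.11 ± 0.434 in 3D with palmitate and 2.91 ± 0.217 in 3D without, and against Itgav the ratios were 0.0457 ± 0.00349, 0.78 ± 0.0638 and 1.0 ± 0.0294. The 2D ratios lay below all 3D ratios in both cases. Itga2b, the platelet alpha subunit, was low at 2.32 ± 0.187, 2.57 ± 0.511 and 2.89 ± 0.257 CPM in the same order, and the 5 platelet markers summed to between 1.53 and 3.36 CPM over all libraries.

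**Figure D2:**
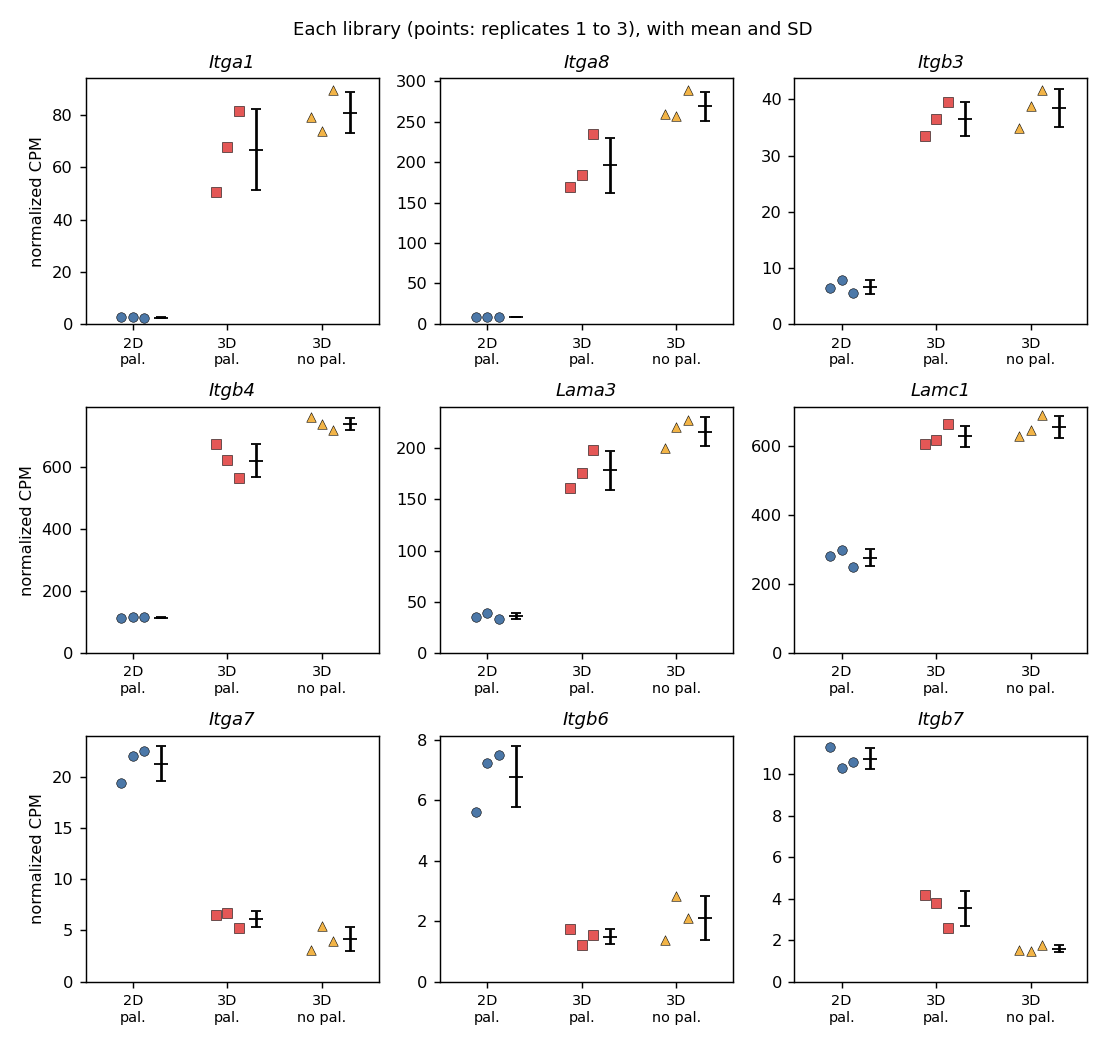
Normalized CPM (y axes, each starting at 0) of 9 genes in each of the 9 libraries, with the mean and SD of each group beside the points. Itga1, Itga8, Itgb3, Itgb4, Lama3 and Lamc1 have all 2D libraries below all 3D libraries, whereas Itga7, Itgb6 and Itgb7 have all 2D libraries above.

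The beta1 subunit, common partner of the alphas above, rose little, whereas beta4 rose strongly. Itgb1 gave 1192, 1190 and 1103 CPM in 2D, 1295, 1393 and 1680 CPM in 3D with palmitate and 1471, 1491 and 1550 CPM in 3D without. The 2D libraries lay below all 3D libraries, with a log2 fold change of 0.33 (SE 0.0815, adjusted p = 0.00258). Itgb4 gave 111, 116 and 115 CPM in 2D, 673, 621 and 565 CPM in 3D with palmitate and 759, 736 and 719 CPM in 3D without. Its log2 fold change was 2.45 (SE 0.0708, adjusted p = 1.58e-12), larger than that of its partner Itga6. Per kb of transcript the ratio of Itgb4 to Itga6 was 0.381, 0.368 and 0.442 in the 2D libraries, 0.995, 0.851 and 0.749 in the 3D libraries with palmitate and 0.995, 0.93 and 0.88 in those without. Thus all 3D libraries had a higher ratio than all 2D libraries (exact two-sided permutation p = 0.1). An opposite-strand gene, B230344G16Rik, covers 7.66% of the exonic bases of Itgb4.

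The betas that pair with alphav moved apart. Itgb3, the vitronectin and osteopontin receptor subunit, gave 6.37, 7.85 and 5.44 CPM in 2D, 33.4, 36.5 and 39.5 CPM in 3D with palmitate and 34.9, 38.8 and 41.7 CPM in 3D without. The 2D libraries lay below all 3D libraries, with a log2 fold change of 2.44 (SE 0.125, adjusted p = 5.26e-10). Itgb6, the epithelial subunit that activates latent TGF-β, gave 5.62, 7.24 and 7.49 CPM in 2D, 1.73, 1.22 and 1.53 CPM in 3D with palmitate and 1.37, 2.84 and 2.12 CPM in 3D without. It fell by 2.16 on the log2 scale (SE 0.23, adjusted p = 1.11e-06), on 10 to 226 counts per library. Itgb5, another vitronectin receptor subunit, gave 83.6, 81.5 and 78.3 CPM in 2D, 103, 98.0 and 84.2 CPM in 3D with palmitate and 99.2, 97.4 and 102 CPM in 3D without (log2 fold change 0.24, SE 0.0721, adjusted p = 0.00891). Itgb8 had 0, 4 and 2 counts in the 2D libraries, 8, 4 and 4 counts in 3D with palmitate and 18, 5 and 19 counts in 3D without. Its call at a log2 fold change of 1.85 (SE 0.733, adjusted p = 0.0364) rests on these few counts and was lost without 2D replicate 1 (adjusted p = 0.0734) or 3 (0.0783) and without replicate 1, 2 or 3 of the 3D cultures with palmitate (0.0519 to 0.0715), with the share of the ribosomal RNA precursor Rn45s as a covariate (0.0645) and after the GC and length trend was taken out (0.059). Per kb of transcript, Itgb3 reached 0.0457 ± 0.00794 of the level of Itgb5 in 2D, 0.221 ± 0.0414 in 3D with palmitate and 0.219 ± 0.0171 in 3D without.

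The leukocyte betas Itgb2 and Itgb7 were lower in 3D, and most leukocyte alphas had almost no counts. Itgb7, partner of alpha4 and alphaE in lymphocytes, gave 11.3, 10.3 and 10.6 CPM in 2D, 4.2, 3.8 and 2.6 CPM in 3D with palmitate and 1.51, 1.49 and 1.79 CPM in 3D without. Its 3 groups did not overlap, and it fell by 1.5 on the log2 scale in 3D against 2D (SE 0.141, adjusted p = 2.97e-07). Itgb2, the beta subunit of the leukocyte integrins, gave 6.95, 5.57 and 5.88 CPM in 2D, 4.12, 2.74 and 4.9 CPM in 3D with palmitate and 2.93, 2.26 and 2.28 CPM in 3D without (log2 fold change -0.65, SE 0.18, adjusted p = 0.00497). Itgae was not called, at 1.23 ± 0.155, 1.29 ± 0.479 and 1.13 ± 0.0816 CPM in the 3 groups (adjusted p = 0.862), and neither was Itga9, at 0.414 ± 0.144, 0.806 ± 0.423 and 0.526 ± 0.236 CPM (adjusted p = 0.073). Without replicate 1 of the 3D cultures with palmitate, Itga9 was called higher in 3D than in 2D (log2 fold change 1.45, adjusted p = 0.0183), and with a library left out its value lay between 0.48 and 1.45. Of 10 leukocyte markers, 1 passed the filter, Cd68, which was lower in 3D (log2 fold change -1.39). The summed level of the 10 markers lay between 24.7 and 28.1 CPM in 2D, between 8.73 and 11.6 CPM in 3D with palmitate and between 7.05 and 9.02 CPM in 3D without, while Adgre1, Cd3e and Tyrobp had 0 counts in all libraries. Nearly all of that sum was Cd68, at 25.7 ± 1.81 CPM in 2D, 9.4 ± 1.66 CPM in 3D with palmitate and 7.08 ± 1.17 CPM in 3D without. Ptprc, the pan-leukocyte marker, lay the other way with no overlap between 2D and 3D, at 0.0765 ± 0.0834, 0.442 ± 0.178 and 0.491 ± 0.0922 CPM in the same order, on at most 11 counts. The part of these markers in the values of Itgb2 and Itgb7 was not tested.

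The 11 genes that failed the filter were Itga4, Itga11, Itgad, Itgal, Itgam, Itgax, Itgb2l, Lama1, Lama2, Lama4 and Lamc3. Itgb2l had 0 counts in every library, Itga4 had 1 count in 1 library, and the muscle, embryonic and endothelial laminin alphas Lama2, Lama1 and Lama4 had at most 5, 2 and 5 counts. Itgax had 1, 0 and 0 counts in the 2D libraries, 15, 7 and 6 counts in 3D with palmitate and 4, 5 and 6 counts in 3D without. In CPM, Itgax stood at 0.0276 ± 0.0478 in 2D, 0.668 ± 0.218 in 3D with palmitate and 0.279 ± 0.0781 in 3D without, and its 3 groups did not overlap. With no filter on low counts, Itgax was called higher in 3D than in 2D (adjusted p = 7.11e-07) but not with palmitate (adjusted p = 0.337). The other 9 genes of this group with any count were not called in either comparison with no filter, and at these counts differences among them were not detectable. A same-strand coding gene, Gm49368, covers 68.7% of the exonic bases of Itgam. Its part in the low counts of Itgam was not tested.

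**Figure D3:**
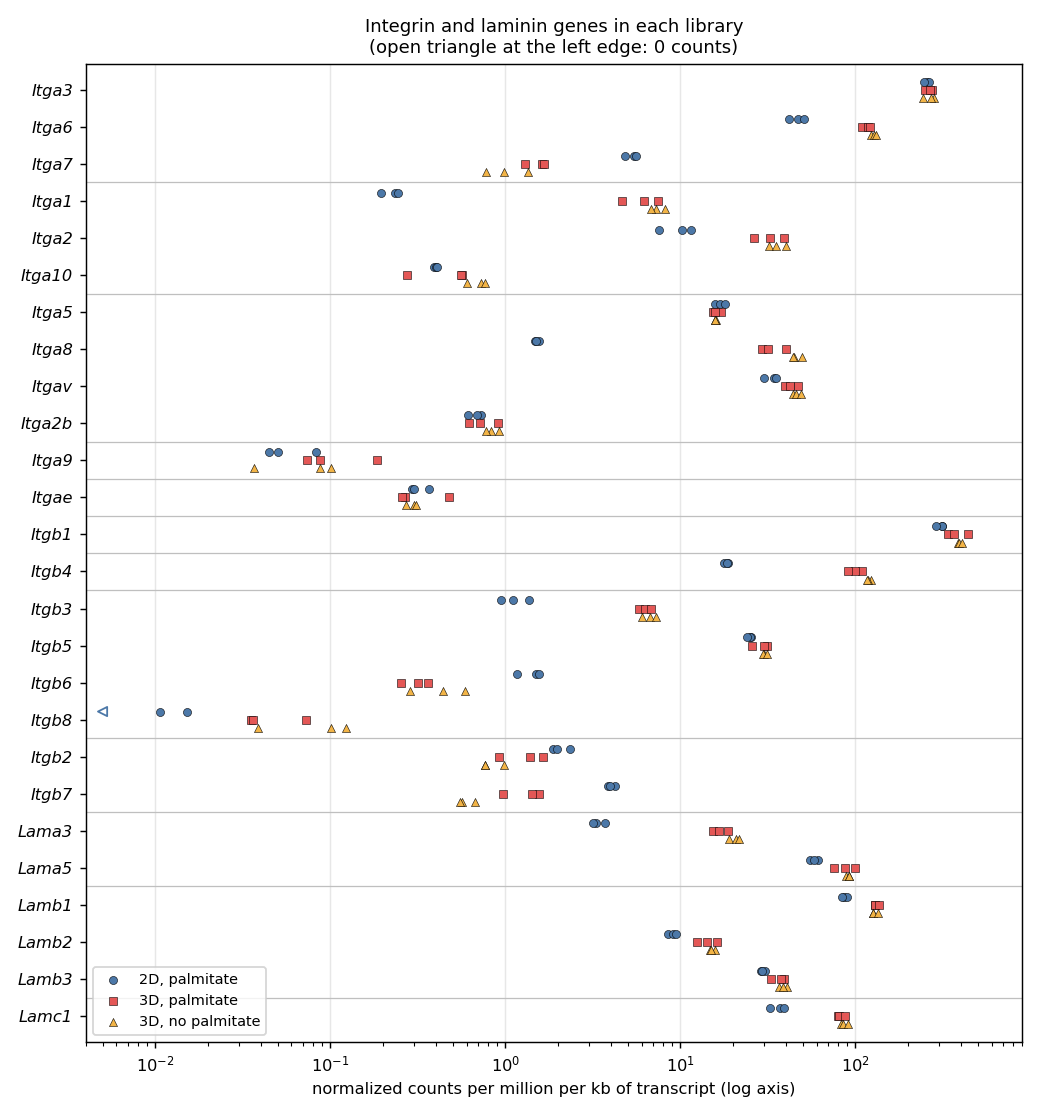
Level of each gene tested in each of the 9 libraries, as normalized CPM per kb of transcript on a log axis, with genes ordered by role and lines between roles. Itgb1 and Itga3 lie above 200 CPM per kb in every library, and the blue circles of the 2D libraries lie well to the left of the 3D libraries for Itga1 and Itga8.

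The hemidesmosomal laminin chains Lama3 and Lamb3 rose in 3D by unequal amounts. Lama3, an alpha chain, gave 34.7, 39.1 and 33.3 CPM in 2D, 162, 175 and 199 CPM in 3D with palmitate and 200.0, 220 and 227 CPM in 3D without, a log2 fold change of 2.31 (SE 0.0907, adjusted p = 2.98e-11). Lamb3, a beta chain, gave 139.9, 148 and 143 CPM in 2D, 190.3, 183 and 160.0 CPM in 3D with palmitate and 179, 199 and 188 CPM in 3D without (log2 fold change 0.31, SE 0.0717, adjusted p = 0.00137). All 2D libraries lay below all 3D libraries for both chains. Per kb of transcript, the ratio of Lama3 to Lamb3 was 0.115 ± 0.00733 in 2D, 0.469 ± 0.0936 in 3D with palmitate and 0.529 ± 0.0258 in 3D without. On this scale Lama3 lay below Lamb3 in every library. The ratio was higher in all 3D libraries with palmitate than in all 2D libraries (exact two-sided permutation p = 0.1). Not divided by length, the mean ratio was 0.248 in 2D and 1.02 in 3D with palmitate, and it was higher still in 3D without. The order of the chains in 3D thus depended on the division by length, which used the longest coding transcript. After removal of the GC and length trend the log2 fold change of Lamb3 was 0.11 (adjusted p = 0.0469).

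The chains of the other epithelial trimer rose as well. Lama5 gave 628, 693 and 663 CPM in 2D, 1137, 998 and 862 CPM in 3D with palmitate and 1007, 1045 and 1050 CPM in 3D without, with a log2 fold change of 0.60 (SE 0.0833, adjusted p = 1.71e-05). Lamb1 gave 499, 519 and 485 CPM in 2D, 753, 750 and 785 CPM in 3D with palmitate and 726, 728 and 779 CPM in 3D without (log2 fold change 0.61, SE 0.0578, adjusted p = 3.44e-07). Lamc1, the gamma chain of this trimer, gave 281, 298 and 249 CPM in 2D, 604, 616 and 662 CPM in 3D with palmitate and 628, 647 and 689 CPM in 3D without (log2 fold change 1.18, SE 0.0733, adjusted p = 3.79e-09). The groups of 3D and 2D libraries did not overlap for any of these chains. Lamb2, a beta chain of neuromuscular and kidney basement membranes, rose from 50.4 ± 2.6 CPM in 2D to 80.4 ± 10.7 CPM in 3D with palmitate and stood at 85.3 ± 3.2 CPM in 3D without (log2 fold change 0.69, SE 0.0853, adjusted p = 5.33e-06). The GC and length trend bore on the smaller of these changes: with it removed, the log2 fold changes were 0.17 for Lama5, 0.32 for Lamb1, 0.43 for Lamb2 and 0.81 for Lamc1, and all kept an adjusted p-value under the threshold. Per kb of transcript, Lamb1 was 2.4 ± 0.148 times Lamc1 in 2D, 1.6 ± 0.0405 times in 3D with palmitate and 1.5 ± 0.0221 times in 3D without, and Lama5 was 1.61 ± 0.152, 1.07 ± 0.195 and 1.06 ± 0.0334 times Lamc1.

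Since the subunits rose unequally, the makeup of each family per kb of transcript differed between the cultures. Itgb1 made up 85.5% ± 0.361 of the summed beta subunits in 2D, 73.2% ± 4.14 in 3D with palmitate and 71.4% ± 0.809 in 3D without, and Itgb4 made up 5.16% ± 0.269, 19.4% ± 3.11 and 21.5% ± 0.904. Among the alpha subunits, Itga3 held 68.9% ± 0.875, 51.3% ± 2.66 and 48.4% ± 1.58 in the same order, Itga6 held 12.5% ± 0.644, 22.5% ± 0.897 and 23.3% ± 0.572, and Itga8 held 0.409% ± 0.0131, 6.53% ± 0.832 and 8.46% ± 0.489. Lama3 held 5.51% ± 0.315 of the laminin alpha chains in 2D, 16.4% ± 3.34 in 3D with palmitate and 18.4% ± 0.661 in 3D without, the rest being almost wholly Lama5. In each of these shares the 3D libraries with palmitate and the 2D libraries did not overlap, at an exact two-sided permutation p of 0.1, unadjusted and the smallest possible in each of the 96 tests of shares, sums and ratios. The summed beta subunits amounted to 356 ± 14.1 CPM per kb in 2D and 520.0 ± 41.6 CPM per kb in 3D with palmitate, and the summed alpha subunits to 370.0 ± 17.0 and 515 ± 23.3 CPM per kb. Without division by length the same shares of Itgb4 were 8.22%, 28.1% and 30.9%.

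**Figure D4:**
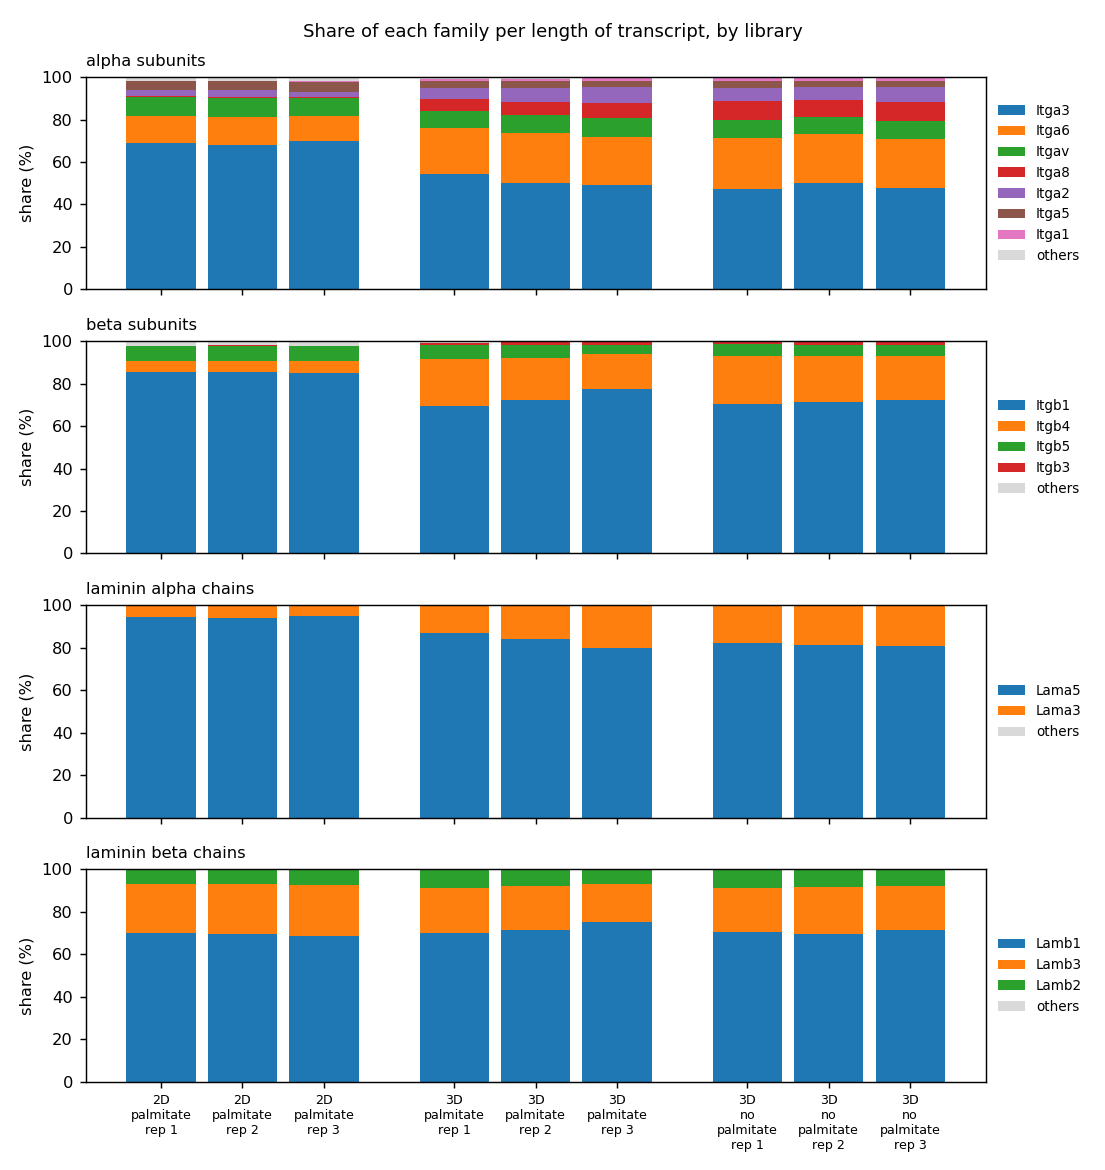
Share (%) of each gene among the summed alpha subunits, beta subunits and laminin alpha and beta chains, per length of transcript, as 1 stacked bar per library (3 libraries per group, rep is the replicate number). The Itgb4 segment is 4.9% to 5.43% in the 2D libraries and 16.1% to 22.4% in the 3D libraries.

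The second comparison asked what added palmitate did in 3D cultures. It shares the 3D libraries with palmitate with the first comparison, so the results of the comparisons are not independent. Of the 26 genes tested, 1 was called higher with palmitate (Itgb7) and 1 lower (Itga8), where 2.19% of all genes tested were called, 1.38% higher and 0.811% lower. Itgb7, at 4.2, 3.8 and 2.6 CPM with and 1.51, 1.49 and 1.79 CPM without palmitate, had a log2 fold change of 1.24 (SE 0.188, adjusted p = 0.00334). Itga8, at 170, 184 and 234 CPM with and 260, 257 and 289 CPM without palmitate, fell by 0.46 on the log2 scale (SE 0.0959, adjusted p = 0.0241). In both genes the groups did not overlap. The call of Itga8 was lost when only the 6 libraries of the 2 groups entered the fit (adjusted p = 0.0801), when the share of the ribosomal RNA precursor Rn45s was a covariate (0.213), without replicate 1 (0.0776), 2 (0.0702) or 3 (0.126) of the cultures without palmitate and without replicate 2 of those with palmitate (0.128). The call of Itgb7 was lost only with the Rn45s covariate (log2 fold change 1.11, adjusted p = 0.06), and Rn45s took between 1.77% and 5.38% of the counts of a library.

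Several other members had lower values with palmitate that did not pass the test. Itgb4 lay at 565 to 673 CPM with and 719 to 759 CPM without palmitate (log2 fold change -0.25, SE 0.0664, adjusted p = 0.0664), and Lama3 at 162 to 199 CPM with and 200.0 to 227 CPM without (log2 fold change -0.28, SE 0.0836, adjusted p = 0.0984). In both the groups did not overlap, as was also the case for Itga6 (log2 fold change -0.14, adjusted p = 0.359) and Itga10 (-0.45, adjusted p = 0.274). Itga1 gave a log2 fold change of -0.31 with overlapping groups (adjusted p = 0.226). Itga7 (0.62, adjusted p = 0.086) and Itgb2 (0.60, adjusted p = 0.148) had higher mean values with palmitate, with groups that overlapped. Among the laminin chains other than Lama3, the log2 fold changes lay between -0.08 (Lamb3) and 0.04 (Lamb1). Without replicate 3 of the 3D cultures with palmitate, 6 members were called in place of 2, namely Itga1, Itga7, Itga8, Itgb4, Itgb7 and Lama3, and the calls over all genes rose from 275 to 1901. Itgb4 was also called without replicate 1 of those cultures (adjusted p = 0.0199) and Itga7 without replicate 2 of the cultures without palmitate (adjusted p = 0.0439), and DESeq2 called both. At an unadjusted p-value under 0.05 the number of members was 9 of 26, where 17.3% of all genes tested were under it.

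The proteins that act with integrins and laminins were described through 5 lists. Of 22 genes listed as integrin activators and adaptors, 21 were tested, and the list also holds an inhibitor, Itgb1bp1. Of those tested, 5 were higher and 7 lower in 3D with palmitate than in 2D with palmitate, where 68.3% of all genes tested were called, 34.5% higher and 33.9% lower. The median log2 fold change of the list was -0.12. The highest were the talin gene Tln2 (0.93, SE 0.0706), the filamin gene Flna (0.91, SE 0.0827) and the parvin gene Parva (0.36, SE 0.0643). The lowest were Apbb1ip (-0.76, SE 0.0614), which recruits talin through Rap1, Parvb (-0.64, SE 0.0869) and Itgb1bp1 (-0.52, SE 0.0899), an inhibitor of beta1 activation. Among the best known activators and adaptors, Fermt1 (-0.32) and Ilk (-0.34) were lower. Tln1 (0.09, adjusted p = 0.222) and Fermt2 (-0.17, adjusted p = 0.0513) were not called, and Lims1 was higher (0.32, adjusted p = 0.00401).

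Of 26 focal adhesion kinases and scaffolds, 25 were tested, 15 were higher and 4 lower in 3D (68.3% of all genes tested were called), and the median was 0.29. Tns4, a tensin that binds beta1 tails, rose from 67.8 ± 5.37 CPM in 2D to 338 ± 10.4 CPM in 3D with palmitate (log2 fold change 2.32, SE 0.0796). Tgfb1i1 (2.14) rested on at most 18 counts, and Lpp, a zyxin relative, rose from 72.1 ± 4.04 CPM in 2D to 166 ± 16.8 CPM in 3D with palmitate. The lowest were Pdlim7 (-0.61), Bcar1 (-0.57) and the mechanosensitive adaptor Zyx (-0.50). Ptk2, which encodes focal adhesion kinase, was not called (-0.07, adjusted p = 0.349).

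The 13 genes of hemidesmosomes, tetraspanins and other laminin receptors were all tested and called higher in 3D, against 34.5% of all genes called higher, with a median of 0.84. Col17a1, a transmembrane collagen of hemidesmosomes, rose from 1.8 ± 0.268 to 5.28 ± 1.36 CPM (log2 fold change 1.65, SE 0.21), the syndecan Sdc1 from 147 ± 1.75 to 379.6 ± 25.1 CPM (1.37, SE 0.0687) and the tetraspanin Cd9 from 273 ± 16.0 to 629 ± 21.0 CPM (1.21, SE 0.0624). Plec, which ties beta4 to keratin filaments, gave 0.84 (SE 0.0965), the dystroglycan gene Dag1 0.87 and the laminin-binding integrin partner Cd151 0.70. The smallest change was that of Dst (0.26, adjusted p = 0.0381), whose groups overlapped, as did those of Tspan4 (0.61, adjusted p = 0.0011).

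Of 21 basement membrane partners of laminins, 13 were tested, 8 were higher and 1 lower in 3D, a share of calls near the 68.3% of all genes, with a median of 0.67. Col18a1 rose from 401 ± 3.03 to 1254 ± 41.5 CPM (log2 fold change 1.64, SE 0.0573), and the collagen IV chains Col4a6 (1.27), Col4a2 (1.12) and Col4a1 (1.11) rose as well. Smoc1 was lower (-0.92, adjusted p = 0.0354) on at most 45 counts. The nidogens, which link laminin to collagen IV, were near absent, with Nid1 at 0.594 ± 0.216 CPM in 2D and 0.771 ± 0.338 CPM in 3D with palmitate and Nid2 at no more than 3 counts in a library.

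Of 23 integrin ligands other than laminins, 18 were tested, 10 were higher and 6 lower in 3D (34.5% and 33.9% of all genes tested), with a median of 0.67. Spp1, which encodes osteopontin, rose from 578 ± 22.3 to 5056 ± 597 CPM (log2 fold change 3.13, SE 0.0871). Edil3, a ligand of alphav integrins, rose from 2.27 ± 0.261 to 13.3 ± 2.01 CPM (2.46, SE 0.15), and Npnt, the nephronectin that alpha8 binds, from 55.7 ± 2.95 to 266 ± 18.7 CPM (2.25, SE 0.0705). The lowest were Postn, which fell from 29.1 ± 1.37 to 0.825 ± 0.596 CPM (log2 fold change -4.89, SE 0.198), Ctgf, from 278 ± 7.81 to 16.6 ± 1.92 CPM (-4.04, SE 0.0859), and Cyr61, from 562 ± 31.7 to 51.6 ± 8.2 CPM (-3.42, SE 0.102). Fibronectin (Fn1) rose from 1889 ± 158 to 4790.0 ± 304 CPM (1.34, SE 0.0704).

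With palmitate in 3D, 0 genes of the first 4 lists were called by edgeR, while 3 of 21, 2 of 25, 2 of 13 and 5 of 13 in that order had an unadjusted p-value under 0.05, against 17.3% of all genes tested. DESeq2 called 0, 1, 0 and 1. Of the ligands, 3 were called: Ctgf (log2 fold change 0.83, SE 0.0991, adjusted p = 0.000823) and Cyr61 (0.81, SE 0.103, adjusted p = 0.00105) were higher with palmitate, and Fn1 was lower (-0.31, SE 0.0692, adjusted p = 0.0337). Ctgf stood at 16.6 ± 1.92 CPM with and 9.45 ± 0.959 CPM without palmitate, Cyr61 at 51.6 ± 8.2 and 30.1 ± 2.57 CPM, and the groups did not overlap in any of the 3 genes. Without replicate 3 of the 3D cultures with palmitate, 8 ligands were called, and 1901 of all 12787 genes tested.

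**Figure D5:**
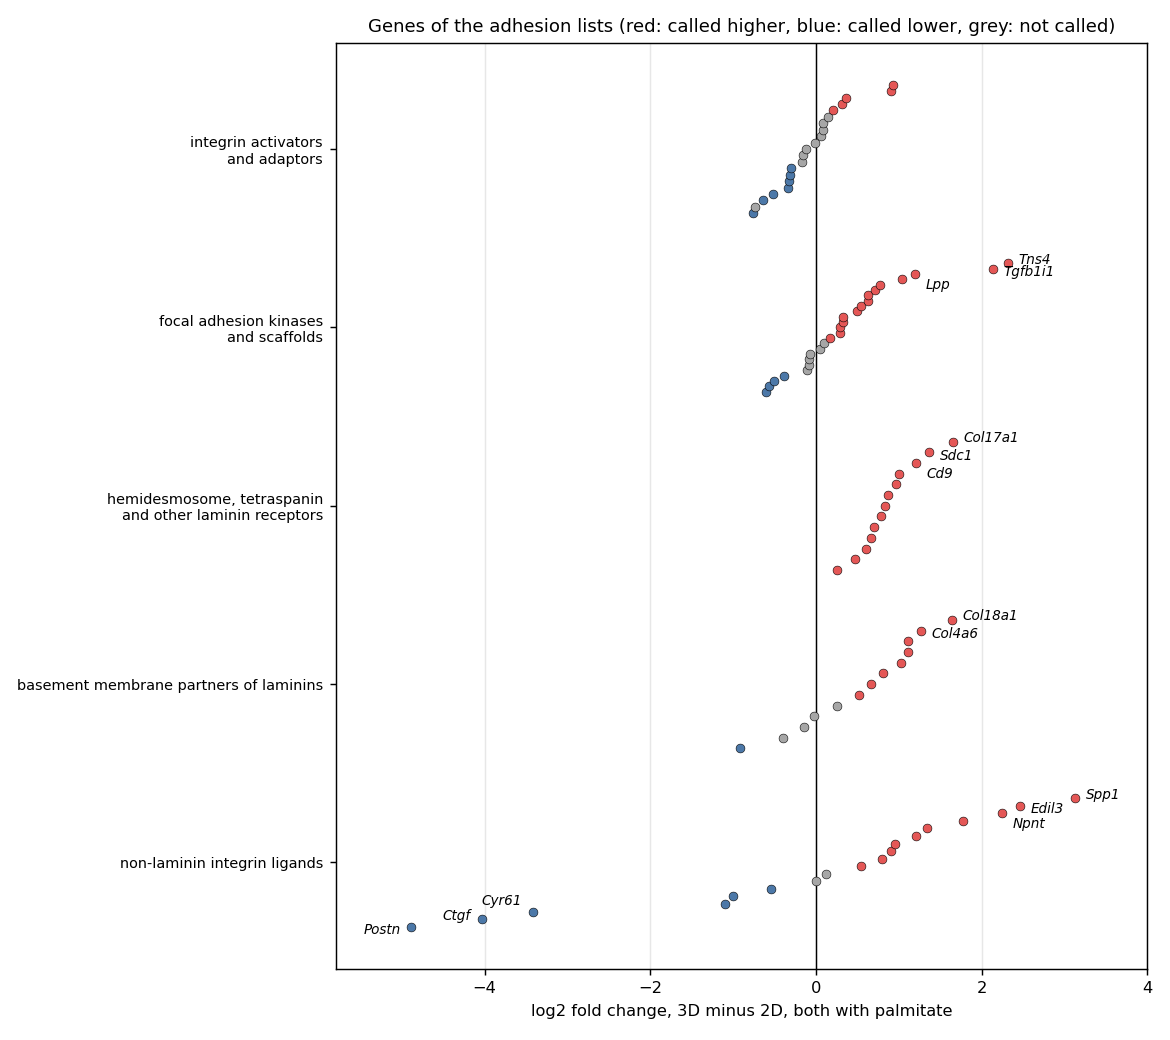
Log2 fold change of 3D minus 2D cultures with palmitate (x axis) for each gene tested in 5 lists (rows, genes sorted within a row), with names beside the genes that moved most. The 13 genes of the hemidesmosome row all lie to the right of 0, and the ligand row spreads from Postn at -4.89 to Spp1 at 3.13.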

How the data were processed

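The deposited values are raw counts of reads on each gene, not normalized by the authors, from poly(A) RNA prepared with a stranded kit. Following the labels and the methods, reads of 50 bp were cleaned, inspected with FastQC (version 0.11.9), aligned to GRCm38 with HISAT2 (version 2.1.0) and counted with HTSeq-count. The annotation release and the strand setting are not given in the sources used here, so how reads of overlapping or antisense genes were assigned is not known. Every column was used (0 left out). Letters after Itga and Itgb were matched in either case, since the rule's upper-case letters would have given 33 genes. 1 other gene taken by the rule is not reported here.

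Counts were analysed with edgeR 4.0.16 in R 4.3.3 (filterByExpr, TMM scaling, a quasi-likelihood fit on the condition over all 9 libraries, Benjamini-Hochberg adjustment), and standard errors were derived from F as |log2 fold change| divided by its square root. Transcript lengths were those of the longest coding transcript (GENCODE, GRCm38). Shares and ratios were tested with exact two-sided permutation tests (SciPy 1.17.1). The fit was also run on simulated counts with the same spread in every group. That run does not show how the fit behaves where groups differ in spread. Every member reported here was named, with the 3 highest and 3 lowest called genes of each list and the list genes called with palmitate. The genes added to show how a list behaves (Tln1, Fermt1, Fermt2, Ilk, Lims1, Ptk2, Plec, Dag1, Cd151, Dst, Tspan4, Nid1, Nid2, Col4a1 and the Fn1 values in 3D against 2D) were chosen after their values were seen. The members and the lists were chosen with earlier results of these data known. The alternatives tried were no filter, RLE factors, library sizes with no factors, at least 10 counts in every library, the 2 groups alone, a replicate block, an Rn45s covariate, DESeq2 1.42.0, a minimum absolute log2 fold change of 0.5, each library left out in turn, and library-wise GC and length trends (splines with 4 degrees of freedom) taken out, which was added after seeing the data. No replicate libraries agreed within sampling noise, with a chi-square per gene of 3.9 to 19.7 where a pair had 20 or more counts. The spread was unequal, at 16.4 to 19.7 among the 3D libraries with palmitate and 3.9 to 9.3 in the other groups. The 3D libraries with palmitate enter both comparisons.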

Additional observations from a re-analysis of the deposited data

How the results depend on the processing

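The number of members called between 3D and 2D cultures was 20 and lay between 19 and 21 with a library left out and at 16 when a log2 change of at least 0.5 was asked for. Taking out the trend with GC content and length left it at 20, made of 14 higher and 6 lower. With palmitate in 3D, 2 members were called, and the number was 6 with no filter, 6 without the GC and length trend (the same 6 genes), 4 with DESeq2, 1 with the 2 groups alone, 1 with the minimum fold change, 0 with the Rn45s covariate and between 1 and 6 with a library left out. Without the GC and length trend, the palmitate calls of the lists were 3 for activators and adaptors, 1 for focal adhesion, 1 for hemidesmosomes and tetraspanins, 3 for basement membrane and 6 for ligands. Of all 12505 genes tested in that fit, 1065 were called. With no filter and with DESeq2, 1 focal adhesion gene was called, and with DESeq2 1 basement membrane gene. With a library left out, the palmitate calls ranged from 0 to 3 for focal adhesion, 0 to 1 for hemidesmosomes, 0 to 4 for basement membrane and 2 to 8 for ligands, the highest values each coming without replicate 3 of the 3D cultures with palmitate. The cause was not tested.

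Several log2 fold changes near 0 changed sign. Removal of the GC and length trend gave -0.14 for Itga3 in 3D against 2D and 0.009 for Itga3 with palmitate, and the Rn45s covariate gave 0.035 for Itgae in 3D against 2D and, with palmitate, 0.022 for Itga3, 0.026 for Itga2b, -0.36 for Itga9 and 0.005 for Itgb1. With a library left out, the values in 3D against 2D ranged from -0.025 to 0.37 for Itga2b and from -0.23 to 0.11 for Itgae. With palmitate they ranged from -0.064 to 0.038 for Itga3, -0.031 to 0.051 for Itga5, -0.37 to 0.02 for Itga2b, -0.021 to 0.95 for Itga9, -0.15 to 0.19 for Itgae, -0.16 to 0.029 for Itgb1, -0.12 to 0.01 for Itgb5, -0.15 to 0.046 for Lama5 and -0.18 to 0.012 for Lamb2.

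Libraries with the same replicate number did not deviate together (correlations of -0.24 to 0.15 in 9 pairs, against -0.17 to 0.28 in 18 other pairs), and with the replicate number as a block 2 members were called with palmitate and the block changed no other call of a member. Scaling by library size only turned the split of the palmitate calls over all genes from 173 higher and 102 lower to 106 higher and 121 lower, and the 2 member calls stayed. The 275 palmitate calls over all genes became 617 with no filter, 388 with DESeq2, 77 with the 2 groups alone, 111 with the block, 44 with the Rn45s covariate, 1065 with the trend removed and 71 to 1901 with a library left out. Itgb8 had at most 19 counts in a library, and its standard error in 3D against 2D was 0.733.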
